A study of Mus musculus with 67 samples.

Results

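Endothelial expression was followed through 10 genes, taken by their names in the gene tables of the RNA-seq libraries: the receptors Kdr, Flt1, Tie1 and Tek, the cell surface proteins Cdh5, Pecam1, Esam and Emcn, the transcription factor Sox18, and She. The 10 genes are 10 of the 46983 gene IDs in the tables. RNA came from mouse forelimb buds in 14 libraries of 4 groups. The E9.25 groups were whole buds of 21 to 23 somite embryos, before Hedgehog signaling starts in the limb, with 3 WT and 4 Gli3-/- libraries. The E10.5 groups were the anterior portions of bisected buds from 32 to 35 somite embryos, with 4 WT and 3 Gli3-/- libraries. Gli3-/- embryos were homozygous for the Gli3 Xt-J allele, which removes part of the gene in every cell, and the line was kept on a Swiss Webster background. Each library was a pool of buds from several embryos (in the sample records 4 pairs for E9.25 libraries and 2 for E10.5 libraries, against about 4 pairs in the study's methods). Since age and dissection changed together, a difference between stages and a difference between whole buds and anterior portions cannot be told apart.

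Endothelial cells line blood vessels, and in the early limb bud a capillary plexus grows in together with the mesenchyme. The VEGF receptors KDR and FLT1 receive VEGF signals, KDR as the main signaling receptor and FLT1 largely as a trap for VEGFA, while TEK (TIE2) binds the angiopoietins and TIE1 acts with it as a partner without a well established ligand of its own. CDH5 (VE-cadherin), PECAM1 and ESAM hold neighboring endothelial cells together, EMCN (endomucin) is a surface sialomucin of capillaries and veins, SOX18 is an early endothelial transcription factor, and She encodes an SH2 domain adaptor of the SHB family.

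The start regions of 4 members are shown because these genes carry the differences described below: She, Tie1 and Kdr, whose E9.25 groups did not overlap, and Tek, which had the largest fall with stage. RefSeq start regions (GRCm38.p6) were found for 6 of the 10 genes (She, Emcn, Tek, Tie1, Kdr and Flt1), each with 250 bases before and 50 after the annotated start. Below, from the top, are chr3:89831120-89831419 (plus strand), chr4:118489800-118490099 (minus), chr5:75978406-75978705 (minus) and chr4:94739039-94739338 (plus). Capitals mark AGGAAG or CGGAAG on either strand, letters that contain the GGAA core of ETS factor sites.
She: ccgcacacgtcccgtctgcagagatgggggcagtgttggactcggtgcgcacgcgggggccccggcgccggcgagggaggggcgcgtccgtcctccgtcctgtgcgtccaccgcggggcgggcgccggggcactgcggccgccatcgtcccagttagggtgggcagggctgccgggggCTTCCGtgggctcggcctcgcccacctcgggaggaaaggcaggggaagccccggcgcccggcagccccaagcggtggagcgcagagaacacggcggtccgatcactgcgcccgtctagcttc
Tie1: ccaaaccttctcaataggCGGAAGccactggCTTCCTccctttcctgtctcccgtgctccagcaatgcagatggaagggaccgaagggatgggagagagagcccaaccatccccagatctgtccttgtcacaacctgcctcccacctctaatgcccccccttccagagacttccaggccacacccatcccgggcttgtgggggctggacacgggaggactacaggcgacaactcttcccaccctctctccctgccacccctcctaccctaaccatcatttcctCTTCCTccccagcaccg
Kdr: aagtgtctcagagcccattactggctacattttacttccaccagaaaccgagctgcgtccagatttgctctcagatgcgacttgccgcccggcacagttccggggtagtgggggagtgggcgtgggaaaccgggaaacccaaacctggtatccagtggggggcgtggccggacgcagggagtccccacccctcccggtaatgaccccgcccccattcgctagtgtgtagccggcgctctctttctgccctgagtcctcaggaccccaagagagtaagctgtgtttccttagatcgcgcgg
Tek: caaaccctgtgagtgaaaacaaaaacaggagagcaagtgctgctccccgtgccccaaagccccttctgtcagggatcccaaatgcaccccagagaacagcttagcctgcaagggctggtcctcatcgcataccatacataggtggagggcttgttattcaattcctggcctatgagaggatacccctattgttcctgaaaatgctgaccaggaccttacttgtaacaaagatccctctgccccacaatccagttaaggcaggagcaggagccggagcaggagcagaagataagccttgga
AGGAAG was found in 3 of the 6 regions (Emcn, Tie1 and Flt1) and in 35.4% of all 32851 promoters of this length, and CGGAAG in 2 of 6 (She and Tie1) and in 16.9% of all. In the She region the single CGGAAG match starts 72 bases before the start site, and Kdr and Tek hold neither motif. ACAATG, a SOX factor motif, and GACCACCCA, a GLI motif, were found in none of the 6 regions and in 12.6% and 0.253% of all. A match of letters is a description of the sequence, and the absence of one says only that these letters are not in the window.

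Library depth, estimated from coverage and FPKM, was 38.1 to 56.8 M reads, and replicates of a group correlated with a Pearson's r of 0.975 to 0.992 across genes. Gli3 was at 38.7 to 40.9 TPM (a per-length transcript abundance with an equal total in every library) in E10.5 Gli3-/- and 73.4 to 89.7 TPM in E10.5 WT. At E9.25 it was at 14.3 to 20.8 TPM in Gli3-/- and at 44.2, 15.8 and 44.6 TPM in WT, so that the library labelled E9.25 WT replicate 2 went against its label and its values are given as labelled. In that library, genes spanning at least 100 kb were lower by a median of 0.51 on the log2 scale than in the other WT replicates, against 0.20 for all genes. Differences are on the log2(TPM + 1) scale, from limma, with p-values adjusted over all genes tested, and a gene with an adjusted p under 0.05 is said to have passed or to be called. The median of all genes tested was not at 0 on this scale: it was 0.23 for Gli3-/- against WT at E9.25, -0.02 at E10.5, 0.34 for stage in WT, 0.06 for stage in Gli3-/- and -0.24 for the interaction of stage and genotype.

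All 10 endothelial genes had a TPM of at least 1 in each of the 14 libraries, and their summed TPM was highest in E9.25 Gli3-/- buds. The sum was 74.0 to 126 in E9.25 WT, 141 to 219 in E9.25 Gli3-/-, 106 to 131 in E10.5 WT and 113 to 140 in E10.5 Gli3-/-. The E9.25 Gli3-/- range lies above the ranges of the other groups. Of the 10 genes, 9 had their highest group mean there, and the exception was Pecam1, which was highest in E10.5 Gli3-/-. In bulk RNA, a larger share of endothelial cells and more of these transcripts per endothelial cell cannot be told apart.

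**Figure D1:**
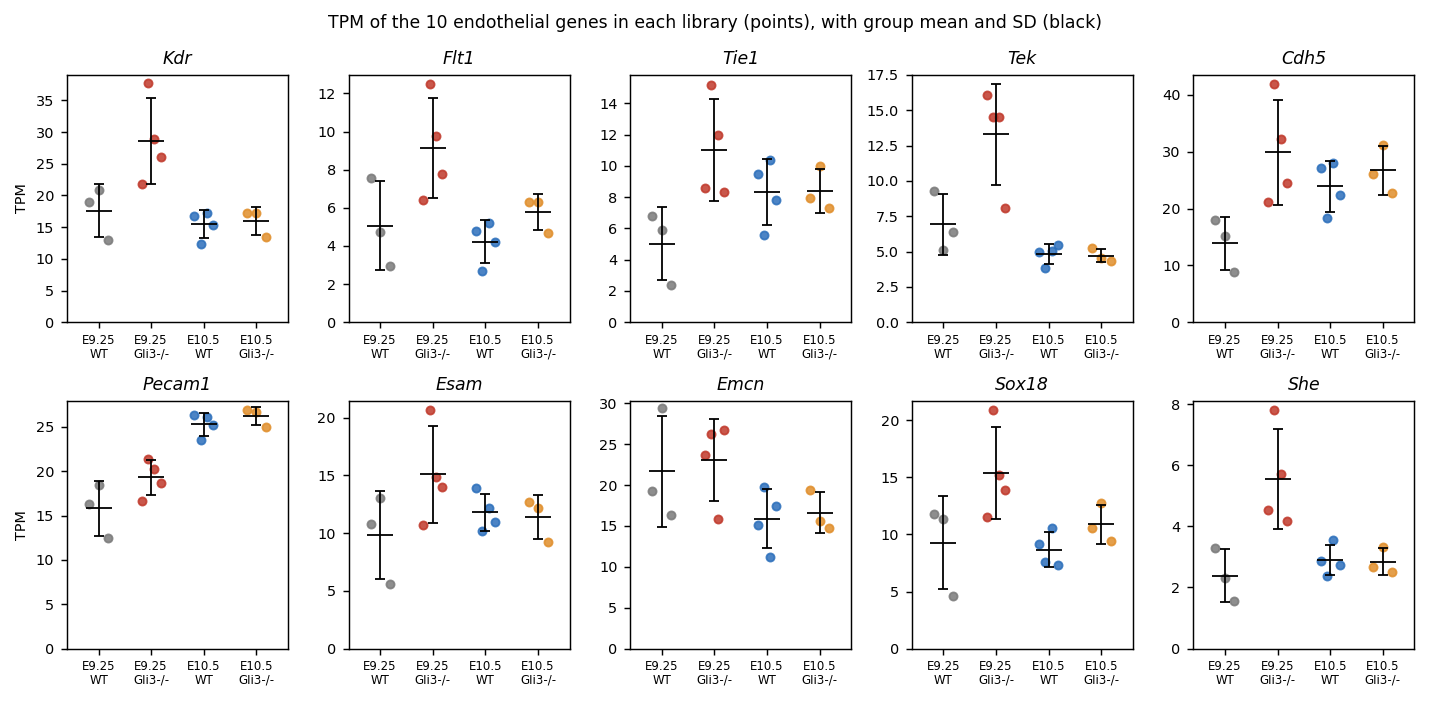
TPM of each of the 10 genes (vertical axis, each panel from 0) in the 14 libraries, by group, with points for libraries and black bars for the group mean and SD. E9.25 Gli3-/- points reach highest for most genes, as for She (4.17 to 7.80 TPM against 1.56 to 3.30 in E9.25 WT), and Pecam1 is highest at E10.5 (23.5 to 26.9 TPM).

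Single libraries stood out for the whole set. E9.25 WT replicate 3 was the lowest of its group for 9 of the 10 genes, with a sum of 74.0 TPM against 122 and 126. E9.25 Gli3-/- replicate 2 was the highest of its group for 8 genes, with a sum of 219 TPM against 141 to 169. At E10.5, Gli3-/- replicate 3 was the lowest of its group for all 10 genes and WT replicate 2 for 8.

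The first comparison asked whether the endothelial genes differ between Gli3-/- and WT buds at E9.25. None of the 10 passed in limma, where 0.136% of 14760 genes were called (0.108% higher and 0.0271% lower). All 10 fitted differences were above 0, from 0.10 to 1.06 with a median of 0.76, where 73.9% of all genes were above 0, and 9 were above the median gene. Of the 10, 7 had an unadjusted p under 0.05, all of them higher, against 19.2% of all genes higher at that level. The count was 4 with quantile normalization (median of the set 0.48), 6 with size factors (median 0.54) and 4 without E9.25 WT replicate 3. The groups did not overlap for Kdr, Cdh5, Tie1 and She, higher in each, against 9.97% of all genes higher in this way. With all 14 libraries in 1 fit, which pools the spread of the 4 groups, 4 members passed: Cdh5 (adjusted p = 0.0354), Tie1 (0.0493), Tek (0.0465) and She (0.0292). That fit called 796 of 16368 genes, against 20 of 14760 with the E9.25 libraries alone. No other setting called a member, and with 1 library left out the median difference of the set ran from 0.49 (without E9.25 WT replicate 3) to 1.00 (without E9.25 WT replicate 1), and it was 0.82 when the library labelled E9.25 WT replicate 2 was left out.

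At E10.5, the same genes did not differ measurably between Gli3-/- and WT anterior buds. None of the 10 passed and none had an unadjusted p under 0.05, where 4.77% of 15654 genes were called in limma (1.84% higher and 2.93% lower) and 19.6% had an unadjusted p under 0.05. The fitted differences ran from -0.05 to 0.39, with a median of 0.05. Of the 10, 7 were above 0, against 45.1% of all genes, and WT and Gli3-/- libraries overlapped for each of the 10, where 7.87% of all genes were higher with no overlap. No alternative called any member. All 10 of the 95% intervals included 0, the widest upper bound being 0.82 for Flt1 and the lowest lower bound -0.40 for Tie1.

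The change with stage differed in direction between members. In WT, 2 of the 10 were higher at E10.5 and passed (Pecam1 and Cdh5), where 48.7% of 15444 genes were called (38.1% higher and 10.6% lower). The same 2 genes were higher with no overlap, as were 41.5% of all genes, and 5 of the 10 differences were above 0, against 72.9%. This direction depends on the scaling: with quantile normalization or median-of-ratios size factors, which move the median gene from 0.34 to 0.00 or 0.04, these calls were lost and 2 members passed as lower (Tek and Emcn). In Gli3-/-, 4 passed, Pecam1 as higher and Kdr, Tek and She as lower, where 25.0% of 15434 genes were called (15.8% higher and 9.17% lower). There 6 had an unadjusted p under 0.05 as lower, against 14.4% of all genes, and 1 difference was above 0, against 56.4%. The stages did not overlap for 5 of the 10 genes, Pecam1 as higher (22.3% of all genes) and Kdr, Flt1, Tek and She as lower (13.4% of all genes). The median of the 10 was 0.11 in WT and -0.44 in Gli3-/-. Quantile normalization and size factors kept this direction in Gli3-/-, with 1 member higher and 5 lower under each.

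The interaction asked whether the genotype difference itself changed between the stages. None of the 10 passed, where 2.13% of 16368 genes were called in limma (0.477% higher and 1.65% lower). All 10 estimates were below 0, from -1.01 to -0.03 with a median of -0.64, where 26.0% of all genes were above 0. Of the 10, 5 had an unadjusted p under 0.05, all lower, against 18.2% of all genes. That count fell to 1 with quantile normalization (median of the set -0.33) and to 2 with size factors (median -0.39). Sample quality weights called 4 members as lower (Kdr, Cdh5, Tie1 and She) in a fit that called 830 of 16368 genes, against 348 without weights. Without E9.25 WT replicate 1, Tek (-1.08) and She (-1.16) passed and 1433 of 16307 genes were called, and without E9.25 Gli3-/- replicate 4, Tek passed (-1.08) and 496 of 16300 genes were called. Comparisons that use the same group share its libraries and are not independent of each other.

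**Figure D2:**
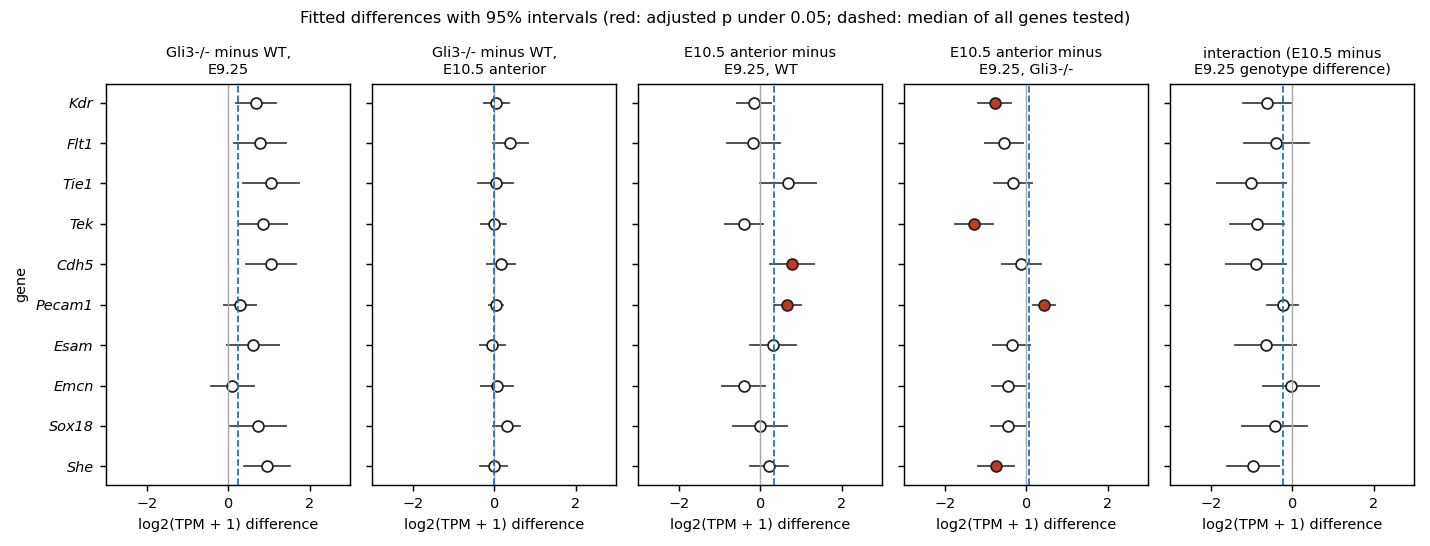
Fitted difference on the log2(TPM + 1) scale (horizontal axis) for each gene (vertical axis) in the 5 comparisons, with 95% intervals, filled red where the adjusted p was under 0.05, and the median of all genes tested as a dashed line. Points sit to the right of 0 at E9.25 (0.10 to 1.06) and near 0 at E10.5 (-0.05 to 0.39), and filled points appear only in the stage comparisons.

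She lies at chr3:89831370-89858834 (plus strand, mm10) and had the lowest TPM of the 10 genes in each library. Its TPM was 3.30, 2.32 and 1.56 in E9.25 WT and 4.54, 7.80, 5.73 and 4.17 in E9.25 Gli3-/-. At E10.5 it was 2.87, 2.39, 3.57 and 2.74 in WT and 2.67, 3.34 and 2.50 in Gli3-/-. The 4 E9.25 Gli3-/- libraries were above the 10 others, and the other groups overlapped. The E9.25 difference was 0.95 (SE 0.26, 95% interval 0.38 to 1.52, adjusted p = 0.206), or 0.73 above the median gene, and it stayed between 0.68 and 1.20 in the 15 alternatives, of which 1 called it. At E10.5 the difference was -0.02 (95% interval -0.35 to 0.31, adjusted p = 0.963). She fell by 0.75 with stage in Gli3-/- (SE 0.20, adjusted p = 0.0208), and the call was lost without E10.5 Gli3-/- replicate 1 (-0.72, adjusted p = 0.0764) or replicate 3 (-0.68, adjusted p = 0.081). In WT the stage difference was 0.22 (adjusted p = 0.392), and it was -0.31 with quantile normalization. The interaction was -0.97 (SE 0.30, adjusted p = 0.108). At 1.56 to 7.80 TPM, She rests on fewer reads per kilobase than the other members, where a TPM of 1 stood for 20.7 to 29.3 reads per kilobase.

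Kdr (chr5:75932827-75978458, minus strand) was highest at E9.25 in Gli3-/- buds. Its TPM was 19.0, 20.8 and 12.9 in E9.25 WT and 21.8, 37.8, 28.9 and 26.1 in E9.25 Gli3-/-. At E10.5 it was 12.4 to 17.3 in WT and 13.4 to 17.3 in Gli3-/-, ranges that overlap almost fully. The E9.25 groups did not overlap, with a difference of 0.67 (SE 0.22, adjusted p = 0.217). Kdr fell by 0.78 with stage in Gli3-/- (SE 0.18, adjusted p = 0.0101), a call kept in all 16 alternatives, and the stage difference in WT was -0.16 (adjusted p = 0.495). Flt1 (chr5:147561604-147726011, minus strand) was at 2.93 to 7.55 TPM in E9.25 WT, 6.43 to 12.5 in E9.25 Gli3-/-, 2.68 to 5.22 in E10.5 WT and 4.66 to 6.32 in E10.5 Gli3-/-. It passed in no comparison: the differences between genotypes were 0.78 at E9.25 (adjusted p = 0.217) and 0.39 at E10.5 (adjusted p = 0.304).

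Tek (chr4:94739289-94874976, plus strand) had the largest fall with stage of the 10 genes. Its TPM was 9.31, 5.09 and 6.35 in E9.25 WT, and 16.1, 14.5, 14.5 and 8.08 in E9.25 Gli3-/-. At E10.5 it was 3.83 to 5.47 in WT and 4.34 to 5.25 in Gli3-/-. In Gli3-/- the stages did not overlap, and Tek fell by 1.29 (SE 0.21, adjusted p = 0.00171), a call kept in all 16 alternatives. In WT the stage difference was -0.41 (SE 0.21, adjusted p = 0.123), and it passed when the library labelled E9.25 WT replicate 2 was left out (-0.58, adjusted p = 0.0345). At E9.25 the difference between genotypes was 0.85 (SE 0.26, adjusted p = 0.217), and E9.25 Gli3-/- replicate 4, at 8.08 TPM, lay within the WT range. Tie1 (chr4:118471191-118490061, minus strand) was at 6.81, 5.88 and 2.41 TPM in E9.25 WT and 8.30 to 15.2 TPM in the 4 E9.25 Gli3-/- libraries, with no overlap and a difference of 1.04 (SE 0.31, adjusted p = 0.217). At E10.5 it was at 5.55 to 10.4 TPM in WT and 7.31 to 9.96 TPM in Gli3-/-, a difference of 0.03 (adjusted p = 0.95). Unlike Tek, Tie1 had a stage difference above 0 in WT, at 0.68, which did not pass (adjusted p = 0.0933). It was 0.18 with quantile normalization and 0.31 without E9.25 WT replicate 3, and it passed with quality weights (1.19, adjusted p = 0.00557) and without E9.25 WT replicate 1 (0.91, adjusted p = 0.0457).

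Cdh5 (chr8:104101625-104144502, plus strand), the cadherin of endothelial junctions, had the largest E9.25 difference. Its TPM was 17.9, 15.2 and 8.77 in E9.25 WT and 21.1, 41.9, 32.2 and 24.5 in E9.25 Gli3-/-. The groups did not overlap, and the difference was 1.06 (SE 0.28, adjusted p = 0.189). At E10.5 it was at 27.1, 18.3, 28.0 and 22.4 TPM in WT and 26.0, 31.2 and 22.8 TPM in Gli3-/-, a difference of 0.16 (adjusted p = 0.634). All 4 E10.5 WT libraries were above the 3 of E9.25 WT, and Cdh5 rose by 0.77 with stage in WT (SE 0.24, adjusted p = 0.0273). This call was lost without E9.25 WT replicate 3 (0.49, adjusted p = 0.0679), without E10.5 WT replicate 1, 3 or 4 (0.69 to 0.80), and with both other scalings (0.40 and 0.45). In Gli3-/- the stage difference was -0.13 (adjusted p = 0.717).

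Pecam1 (chr11:106654217-106750628, minus strand), an adhesion protein of endothelial cells, blood cells and platelets, was higher at E10.5 in both genotypes. Its TPM was 16.3, 18.5 and 12.5 in E9.25 WT and 26.4, 23.5, 26.1 and 25.2 in E10.5 WT. In Gli3-/- it was 16.7, 21.4, 20.2 and 18.7 at E9.25 and 26.9, 26.7 and 25.0 at E10.5. All 7 E10.5 libraries were above all 7 E9.25 libraries. Pecam1 rose by 0.66 in WT (SE 0.14, adjusted p = 0.00644), 0.33 above the median gene, and by 0.43 in Gli3-/- (SE 0.12, adjusted p = 0.0253). The WT call was lost with quantile normalization (0.31, adjusted p = 0.165) and with size factors (0.33, adjusted p = 0.13). The Gli3-/- call was lost without E9.25 Gli3-/- replicate 4 or any 1 of the 3 E10.5 Gli3-/- libraries (0.41 to 0.46). Platelet and leukocyte markers moved with stage too. The 10 macrophage and leukocyte markers summed to 4.55 to 7.48 TPM in E9.25 WT, where 2 of them were at 0 in all libraries, and 31.2 to 39.4 TPM in E10.5 WT, with medians of 7.89 and 33.9 TPM in Gli3-/-. Over both genotypes, the 7 megakaryocyte and platelet markers summed to 7.76 to 23.9 TPM at E9.25 and 22.2 to 49.9 TPM at E10.5. Their part in the Pecam1 difference was not tested.

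Esam (chr9:37528078-37538319, plus strand), Emcn (chr3:137341067-137432185, plus strand) and Sox18 (chr2:181669836-181671640, minus strand) passed in none of the 5 comparisons. At E9.25, Esam was at 9.81 ± 3.82 TPM (SD, n = 3) in WT and 15.1 ± 4.19 TPM (SD, n = 4) in Gli3-/-, a difference of 0.61 (adjusted p = 0.236). Sox18 was at 4.58 to 11.8 TPM in WT and 11.5 to 20.9 in Gli3-/-, a difference of 0.74 (adjusted p = 0.22). The ranges of WT and Gli3-/- overlapped for both genes, and E9.25 WT replicate 3 was the lowest library for each. Emcn had the smallest E9.25 difference of the members, at 0.10 (95% interval -0.42 to 0.63, adjusted p = 0.793), which was -0.13 under both other scalings. It was at 16.4 to 29.4 TPM in WT and 15.9 to 26.8 in Gli3-/-. Pecam1 was next, with an E9.25 difference of 0.28, against 0.23 for the median gene, and its groups overlapped too. The stage differences of Emcn were -0.41 in WT (adjusted p = 0.164) and -0.44 in Gli3-/- (adjusted p = 0.111).

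The makeup of the summed endothelial TPM changed with stage in ways that do not depend on the scaling of a library, since each gene is set against the others of the same library. These ratios were chosen after the values were seen and carry no test. Kdr made up 15.4% to 17.4% of the sum in the 7 E9.25 libraries and 11.7% to 13.4% in the 7 of E10.5, and Pecam1 9.77% to 16.9% and 19.1% to 22.1%. The log2 ratio of Pecam1 to Kdr was below 0 in all E9.25 libraries (-0.82 to -0.04) and above 0 in all E10.5 libraries (0.59 to 0.92). The ratio of the angiopoietin receptor Tek to its partner Tie1 was -0.21 to 1.40 at E9.25 and -1.13 to -0.52 at E10.5. The ratio of She to Cdh5 was -2.71 to -2.22 at E9.25 and -3.28 to -2.94 at E10.5. These 3 ratios separated the stages with no overlap, and for each of them WT and Gli3-/- overlapped at E10.5. At E9.25 the Pecam1 to Kdr ratio was lower in Gli3-/- (-0.82 to -0.38) than in WT (-0.22 to -0.04). The ratio of the receptors Kdr to Flt1 went the other way: it did not separate the stages (1.33 to 2.15 at E9.25 and 1.45 to 2.21 at E10.5), but at E10.5 it was 1.73 to 2.21 in WT and 1.45 to 1.53 in Gli3-/-, with no overlap. She made up 2.74% to 3.56% of the sum in E9.25 Gli3-/- and 1.84% to 2.76% in the other groups, with 1 library of E10.5 WT inside the E9.25 Gli3-/- range.

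**Figure D3:**
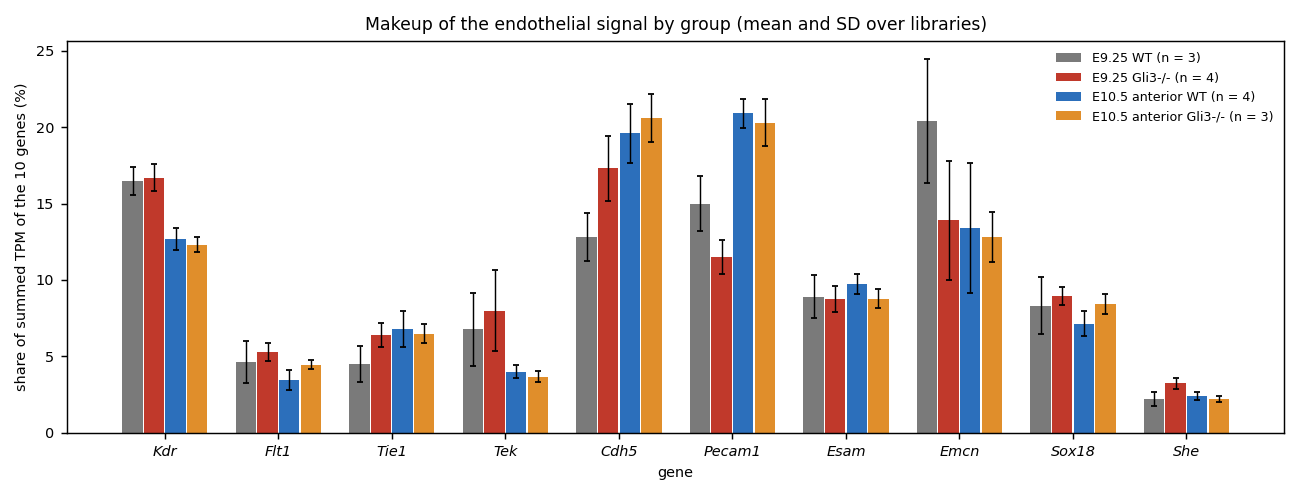
Share of the summed TPM of the 10 genes (vertical axis, percent, from 0) taken by each gene, as the mean over the libraries of each group with SD bars. Pecam1 takes a larger share at E10.5 (20.9% in WT and 20.3% in Gli3-/-) than at E9.25 (15.0% and 11.5%), and Kdr and Tek a smaller one.

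Within groups, 8 of the members moved together from library to library, and Tek and Emcn did not follow them. After each group's mean was removed, the mean Pearson's r of a gene with the 9 others over the 14 libraries was 0.70 to 0.75 for Kdr, Flt1, Pecam1, Cdh5, Tie1, Esam, Sox18 and She, against 0.19 for Tek and 0.02 for Emcn. The closest pair was Cdh5 and Tie1 (r = 0.97), and Tek and Emcn had r = -0.39. Libraries share depth and the scaling of TPM, so that these values are a description. Without removal of the group means, Pecam1 had the lowest mean r, at 0.11, against 0.70 with the group means removed.

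**Figure D4:**
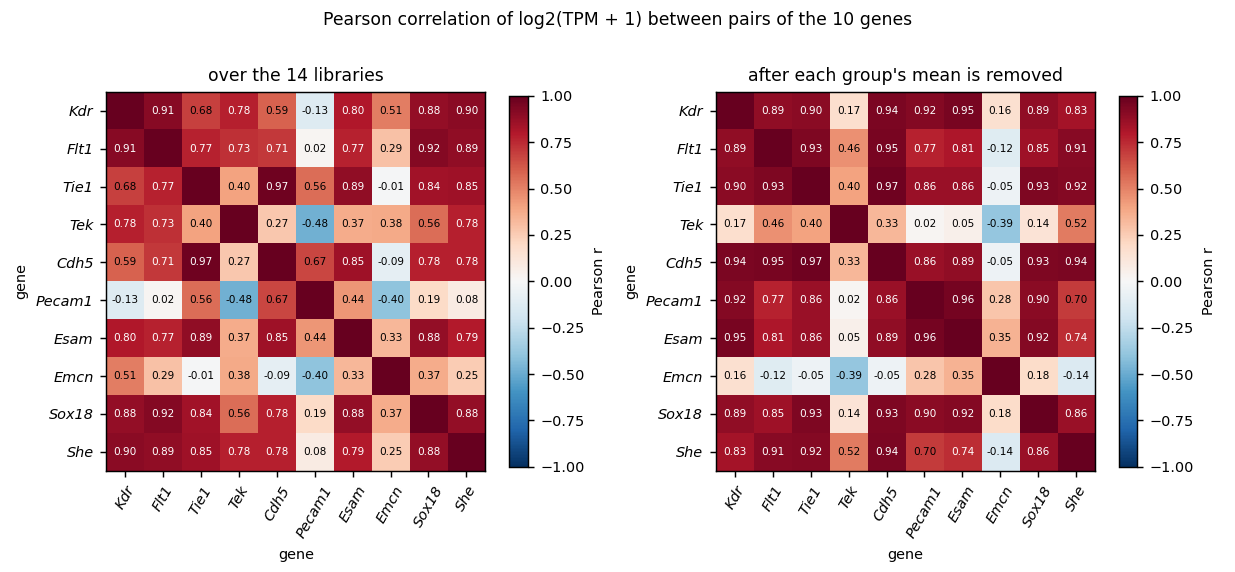
Pearson's r of log2(TPM + 1) between each pair of the 10 genes (both axes), over the 14 libraries as measured (left) and after each group's mean was removed (right), on a scale from -1 (blue) to 1 (red). Tek and Emcn are pale on the right, with mean r of 0.19 and 0.02, while the other genes lie between 0.70 and 0.75.

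Among 16358 other genes, the 5 whose log2(TPM + 1) over the 14 libraries was most like the mean of the 10 members were Pde2a, Ehd2, Plvap, Ntmt1 and Plxnd1, with Pearson's r of 0.96 to 0.97. For She alone they were Cd248, Ehd2, Stab1, Pde2a and Flt4, also with r of 0.96 to 0.97. Of the members, Kdr was the nearest to She (r = 0.90, rank 102 of 16367 genes) and Pecam1 the farthest (r = 0.08). This order includes the differences between groups. After each group's mean was removed, Cdh5 was the nearest member (r = 0.94) and Emcn the farthest (r = -0.14), with Kdr at 0.83 and Pecam1 at 0.70. Of the 5 genes nearest to the mean, 3 were also among the nearest 5 with quantile normalization or size factors, and for She 2 and 3 of its 5.

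Ligands of the VEGF, angiopoietin and apelin receptors gave few calls between genotypes. Of 9 ligand genes tested, none passed at E9.25 (median 0.69, against 0.23 for all genes). At E10.5 1 passed as higher, against 1.84% of all genes: Apln, a ligand of the apelin receptor, which is not among the 10 genes. Apln was at 4.58 to 5.83 TPM in E10.5 WT and 8.09 to 8.64 TPM in E10.5 Gli3-/-, with no overlap, and rose by 0.59 (SE 0.11, adjusted p = 0.0172). The call was lost without any 1 of the 3 Gli3-/- libraries (0.57 to 0.61). With stage in Gli3-/-, 1 of 9 ligands rose and 4 fell, where 15.8% and 9.17% of all genes did. Figf (Vegfd), a ligand of lymphatic and endothelial VEGF receptors, rose by 1.28 (SE 0.20, adjusted p = 0.00113), from 4.39 to 8.35 TPM at E9.25 to 14.7 to 16.9 TPM at E10.5. Vegfc, also a lymphatic growth factor, fell by 1.10 (SE 0.21, adjusted p = 0.00379), from 12.3 to 21.0 TPM to 5.15 to 8.96 TPM. With stage in WT 1 ligand passed, where 38.1% of all genes were called higher. It was Apela, another apelin receptor ligand, which rose by 1.53 (SE 0.24, adjusted p = 0.00174).

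Of the 18 other endothelial receptors, 17 were tested between genotypes, and their pattern at E9.25 was close to that of the members. None passed, 11 had an unadjusted p under 0.05, all higher, and the median was 0.70. Of all genes, 0.136% were called and 19.2% were higher at that unadjusted level, with a median of 0.23. At E10.5 1 passed as higher, against 1.84% of all genes: Nrp2, a co-receptor for VEGF and semaphorins. Nrp2 was at 30.4 to 37.4 TPM in E10.5 WT and 66.3 to 91.0 TPM in E10.5 Gli3-/- and rose by 1.14 (SE 0.11, adjusted p = 0.000806), a call kept in all 16 alternatives. It also rose with stage, by 1.61 in WT (adjusted p = 0.00229) and 1.44 in Gli3-/- (adjusted p = 0.000734). Stage called 3 of 16 receptors as higher in WT, a smaller share than the 38.1% of all genes, and in Gli3-/- 2 of 18 as higher and 4 as lower, where 15.8% and 9.17% of all genes were called. The largest fall in Gli3-/- was that of Lyve1, a hyaluronan receptor of lymphatic endothelium, by 1.19 (adjusted p = 0.0197), but this gene passed the filter through the E9.25 Gli3-/- libraries alone (0.924 to 4.16 TPM), and its call was lost without any 1 of the 3 E10.5 libraries.

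The junction and surface list of 20 genes had no call at E9.25 (18 tested, median 0.52). There 14 differences were above 0, against 73.9% of all genes, and 4 were below 0. The groups did not overlap for 6 as higher, against 9.97% of all genes, and for 2 as lower. The 2 were Esm1 (3.42 to 5.55 TPM in WT and 2.20 to 3.40 TPM in Gli3-/-) and Gja5, which was tested through the WT libraries alone. At E10.5 the list had 1 call among 19 tested, where 1.84% of all genes were called higher: Esm1, a proteoglycan of sprouting endothelium. Esm1 rose by 0.53 (SE 0.12, adjusted p = 0.0394), from 3.48 to 4.54 TPM to 5.64 to 6.84 TPM, and the call was lost when any 1 of the 7 libraries was left out (0.47 to 0.59). With stage, 4 of 19 rose and 1 fell in WT, where 38.1% and 10.6% of all genes did, and 5 of 19 rose and 6 fell in Gli3-/-, where 15.8% and 9.17% did. Gja5, a gap junction protein of arterial endothelium, rose by 1.62 in WT (adjusted p = 0.000489) and by 2.54 in Gli3-/- (adjusted p = 1.1e-05). Its TPM was 1.02 to 2.13 in E9.25 WT, 0.173 to 0.665 in E9.25 Gli3-/-, and 5.21 to 8.39 over the E10.5 libraries, so that in Gli3-/- it was tested through the 3 E10.5 libraries alone. Cd34, a sialomucin of endothelial and progenitor cells, fell by 0.56 in WT (adjusted p = 0.00965), and Podxl, a sialomucin of endothelium and other epithelia, fell by 2.17 in Gli3-/- (adjusted p = 0.000197).

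Among 20 endothelial transcription factors, none of 17 tested passed at E9.25 (median 0.49). At E10.5 2 of 18 passed, both higher, where 1.84% of all genes were called higher. The larger was Lmo2, a partner of TAL1 in endothelial and blood cells, which rose by 0.88 (SE 0.15, adjusted p = 0.0109), from 23.6 to 30.9 TPM to 38.9 to 61.2 TPM, and passed in all 7 fits with a library left out, but not with no filter (adjusted p = 0.0586) or with the replicate block (0.0578). With stage, the largest called rise and the largest called fall of the list were both of ETS factors, Fli1 and Etv2, in each genotype. Fli1 rose by 1.96 in WT (adjusted p = 3.6e-05) and by 1.90 in Gli3-/- (adjusted p = 5.85e-06), and was at 10.2 to 11.2 TPM in E9.25 WT and 39.5 to 52.1 TPM in E10.5 WT. Etv2, the early factor of endothelial and blood progenitors, fell by 3.50 in WT (adjusted p = 4.29e-05) and by 2.07 in Gli3-/- (adjusted p = 0.000235). Etv2 was at 6.49 to 19.5 TPM at E9.25, at 0 to 0.464 TPM in E10.5 WT and at 0.884 to 1.99 TPM in E10.5 Gli3-/-. In WT it was therefore tested through the 3 E9.25 libraries alone, and could not be tested with any 1 of them left out. The calls of both genes were kept in all alternatives that tested them.

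Arterial and venous genes had no call at E9.25 among 12 tested (median 0.35). At E10.5 2 of 11 passed as higher and 1 as lower, where 1.84% and 2.93% of all genes did. Hey1, a Notch effector of arterial endothelium, rose by 1.20 (SE 0.13, adjusted p = 0.00136), from 17.7 to 22.3 TPM to 37.8 to 54.5 TPM, a call kept in all 16 alternatives. Efnb2, the arterial ephrin, fell by 0.71 (SE 0.16, adjusted p = 0.0367), and this call was lost without E10.5 WT replicate 1, 3 or 4 or without Gli3-/- replicate 2 or 3 (-0.77 to -0.51). With stage in WT, 8 of 12 rose and 1 fell, where 38.1% and 10.6% of all genes did, on the TPM scale. Cxcr4, a chemokine receptor of arterial and tip cells, had the largest rise, by 2.10 (adjusted p = 7.56e-05), from 1.44 to 2.32 TPM to 9.68 to 11.8 TPM, and Hey2, a Notch effector like Hey1, fell by 0.79 (adjusted p = 0.0128). Hey2 was tested through the 3 E9.25 WT libraries alone (1.43 to 3.17 TPM, against 0.772 to 0.992 in E10.5 WT), and its call was lost with the replicate block (adjusted p = 0.0505). With stage in Gli3-/-, 6 of 12 rose and 3 fell, where 15.8% and 9.17% of all genes did. The largest fall was that of Nr2f2, a venous factor, by 1.46 (adjusted p = 0.000442). Several genes of these lists, such as Nr2f2 and Efnb2, are also expressed outside the endothelium.

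The SH2 adaptors related to She gave no call between genotypes. Between genotypes at E9.25, Shb, Shd and Shf had differences of -0.07, 0.02 and 0.32 (adjusted p = 0.831, 0.963 and 0.296), where that of She was 0.95, and whether these differ from She was not tested. With stage, Shb rose by 0.72 in WT (adjusted p = 0.00855) and 1.21 in Gli3-/- (adjusted p = 0.000515), and Shd rose by 2.09 (adjusted p = 4.25e-05) and 1.71 (adjusted p = 0.000515). Shf fell by 0.50 in WT (adjusted p = 0.022) and by 0.66 in Gli3-/- (adjusted p = 0.0164). The Shb rise in WT was lost with both other scalings (0.28 and 0.41). The Shf fall in WT was lost without E9.25 WT replicate 1 (-0.40) or E10.5 WT replicate 4 (-0.43), and that in Gli3-/- without E10.5 Gli3-/- replicate 1 (-0.54) or 3 (-0.66).

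Flank and lateral plate markers were the list of other cells with calls between genotypes at E9.25. The 11 flank and lateral plate markers summed to 60.6 to 116 TPM in WT and 122 to 285 TPM in Gli3-/-, with no overlap. Of the 10 tested, 2 passed as higher (Foxf1 and Gata4), against 0.108% of all genes. The list median was 1.23, against 0.23 for all genes. The 10 ectoderm markers summed to 230 to 346 TPM in WT and 319 to 466 TPM in Gli3-/-, and the 10 limb mesenchyme markers to 839 to 1014 and 751 to 1101 TPM. The 12 erythroid markers summed to 11647 to 21222 and 8549 to 28917 TPM, which overlap. At E10.5 the erythroid sum was 12548 to 17544 TPM in WT and 15035, 17490 and 42894 TPM in the 3 Gli3-/- libraries. Only 1 Gli3-/- library was thus above the WT range of this sum. All 12 differences were above 0 (median 0.57), against 45.1% of all genes, and 1 was called higher, against 1.84%. The 7 megakaryocyte and platelet markers summed to 22.2 to 28.3 and 31.9 to 49.9 TPM there. Of the 5 tested, 2 passed as higher, against 1.84% of all genes. The limb mesenchyme sum was 1162 to 1414 TPM in WT and 877 to 942 TPM in Gli3-/-. Of its 10 markers, 6 were called lower and 1 higher, against 2.93% and 1.84% of all genes. In WT, the flank sum was 60.6 to 116 TPM at E9.25 and 82.6 to 110 TPM at E10.5, which overlap. Of the 8 markers tested for stage in WT, 6 were called lower and 2 higher, against 10.6% and 38.1% of all genes. From E9.25 to E10.5 in Gli3-/-, the flank sum went from 122 to 285 TPM to 28.3 to 46.2 TPM. There 9 of 10 markers were called lower, against 9.17% of all genes. Only 2 of the 11 markers reached a TPM of 1 in all E10.5 Gli3-/- libraries, against 9 in all E9.25 Gli3-/- libraries. Most were thus tested through the E9.25 libraries where they are high, so that the filter largely set their direction. The 9 pericyte and smooth muscle markers summed to 29.5 to 55.3 TPM at E9.25 and 37.1 to 56.8 at E10.5, the 6 muscle progenitor markers to 5.88 to 11.5 and 28.0 to 52.4, and the 6 neural crest and Schwann markers to 1.01 to 5.53 and 4.58 to 9.27. The part of these cells in the endothelial differences was not tested.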

How the data were processed

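RNA-seq of 14 pools of mouse forelimb buds was used. Libraries were made with a NEBNext Ultra II RNA kit and sequenced as single reads of 100 bases, and the authors aligned reads with HISAT2. The processing notes name mm10, and whether reads were assigned by strand is not given in the sources used here. For each gene ID, the authors deposited coverage (mean depth per base), FPKM and TPM, and no read counts, so that count models could not be run. The deposited TPM values were tested, while the deposited FPKM and coverage were used to estimate reads per library.

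TPM was summed per gene ID and taken as log2(TPM + 1), a scale that understates changes of low genes. A gene was tested where 3 or more libraries of the fit reached a TPM of 1, with limma 3.58.1 (R 4.3.3; eBayes with trend, two-sided, Benjamini-Hochberg adjustment over all genes tested, threshold 0.05). Each comparison of 2 groups used its own libraries, and the interaction all 14. The procedure was tested on simulated data. The study's methods say that buds of multiple litters were pooled, and they call the libraries biological replicates. They do not say that pools of 1 group come from separate litters, so that p-values measure the spread between these pools.

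The members and gene lists were chosen with earlier results of these data known. Named besides the members are, per list, the called gene with the largest rise and fall in each comparison, all genes of a list of at most 3, and the 5 genes most like the member mean or She. A few genes share 2 lists. Lists are described by counts and medians. Each result was recomputed with the pseudocount at 0.1, without the filter, with the filter at 5 TPM, with no variance trend, after quantile scaling or division by median-of-ratios size factors, with quality weights, with a replicate block, in 1 fit of 14 libraries, and with each library left out. Recomputed likeness was added after seeing the data. Figures were drawn with matplotlib 3.10.9, and other steps used Python 3.11.15, pandas 2.3.3 and NumPy 2.4.6. The series' 53 other samples were not used here.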

Additional observations from a re-analysis of the deposited data

Results flagged for a closer look

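Dixon's test was run on log2(TPM + 1) of the 10 endothelial genes in the 2 groups of 4 libraries, 20 tests in all, of which chance flags about 1 in 20. It marked 1 value: Tek in E9.25 Gli3-/- replicate 4, at 3.18, where the other libraries of the group were at 3.95 to 4.10. Without that library, the E9.25 difference of Tek was 1.05 (limma adjusted p = 0.119) and the interaction -1.08 (adjusted p = 0.0374), against 0.85 and -0.87 with it.

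The genotype difference itself differed between the stages for 4 genes of the endothelial lists, by the interaction term of the limma fit, all in the direction of a higher Gli3-/- value at E10.5. The interaction was 1.06 for Figf (SE 0.25, adjusted p = 0.0403), where the genotype difference was -0.87 at E9.25 and 0.19 at E10.5. For Esm1 it was 0.98 (adjusted p = 0.0406), for Lmo2 1.09 (adjusted p = 0.0227) and for Hey1 1.18 (adjusted p = 0.0222). These signs are opposite to those of the 10 endothelial genes, whose interaction estimates were all below 0. The 4 calls are not stable when 1 of the 14 libraries is left out: Figf passed in 4 of the 14 fits (0.94 to 1.21), Esm1 in 3 (0.82 to 1.10), and Lmo2 (0.95 to 1.27) and Hey1 (1.05 to 1.32) in 9 each. With the library labelled E9.25 WT replicate 2 left out, Esm1 (0.82), Lmo2 (0.99) and Hey1 (1.11) did not pass.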

How the results depend on the processing

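Values are log2 differences from limma, and counts are of the 10 endothelial genes. No alternative called a member between genotypes at E10.5. At E9.25 the count of 0 became 4 with all 14 libraries in 1 fit, and stayed at 0 with any 1 library left out. For stage in WT, the count of 2 became 1 with no filter, 4 with quality weights, 1 with the replicate block and 1 to 3 with a library left out. For stage in Gli3-/-, the count of 4 became 7 with quality weights and 2 to 6 with a library left out. For the interaction the count of 0 became 4 with quality weights and 0 to 2 with a library left out. Quality weights also raised the number of all genes called. It went from 7520 to 8556 of 15444 for stage in WT and from 3853 to 6520 of 15434 for stage in Gli3-/-. For the interaction it went from 348 to 830 of 16368. With a library left out, all genes called ran from 5139 to 8305, 2129 to 4326 and 150 to 1433 in the same order. Of the 6 member calls, 2 were kept in every alternative (Kdr and Tek, stage in Gli3-/-), and all 6 kept their sign. Of the 33 calls of the pathway genes named, 19 were kept in every alternative that tested them and all 33 kept their sign.

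Signs turned for values near 0 and for some farther from it, such as Flt1 for the interaction (-0.39) and Esam (0.31) and She (0.22) for stage in WT. Between genotypes at E9.25, Emcn was -0.13 with both other scalings, and Shd -0.25 with quantile normalization, -0.15 with size factors and -0.09 with quality weights. At E10.5, Tek was 0.09 and She 0.09 with quantile normalization, Tek 0.03 with the replicate block, and Kdr -0.04, Cdh5 -0.01 and Tie1 -0.17 with quality weights. For stage in WT, Esam was -0.13 and She -0.31 with quantile normalization, Esam -0.01 and She -0.03 with size factors, and Kdr 0.13 and Flt1 0.21 with quality weights. For the interaction, quantile normalization gave 0.03 for Flt1, 0.04 for Pecam1, 0.24 for Emcn and 0.06 for Shf, size factors 0.03 for Pecam1, 0.23 for Emcn and 0.11 for Shf, and the block 0.10 for Emcn. With a library left out, E9.25 values ran from -0.07 to 0.33 for Emcn, -0.08 to 0.16 for Shd and -0.17 to 0.02 for Shb. E10.5 values ran from -0.05 to 0.16 for Kdr, -0.13 to 0.14 for Tie1, -0.11 to 0.03 for Tek, -0.07 to 0.18 for Emcn, -0.13 to 0.08 for Esam and -0.11 to 0.06 for She. Stage values ran from -0.45 to 0.12 for Flt1 and -0.02 to 0.53 for Esam in WT and -0.27 to 0.05 for Cdh5 in Gli3-/-, and the interaction of Emcn from -0.26 to 0.14. The cause was not tested.

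The replicate block used the numbers of the sample titles, which say nothing of a shared litter or day. The E10.5 Gli3-/- libraries are numbered 1 to 3 in the titles but 2 to 4 in the names of their tables, and replicates are named here by title. The block was not run with the other numbering. With the titles, in no comparison was the correlation of all 3 pairs over 0.1. Of 3 numbers, 0 to 1 correlated best with itself. With the block, members called were 0 at E9.25, 0 at E10.5, 1 for stage in WT, 4 for stage in Gli3-/-, all lower, and 0 for the interaction. A fit with 3 or 4 libraries a group and no counts limits the precision of all values, and genes under 1 TPM were not tested.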
